A study of Mus musculus with 15 samples.

Results

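RNA sequencing compared lung basophils with lung natural helper cells, both sorted after papain treatment, to ask which transcripts separate these innate sources of type 2 cytokines at the same time after the same allergen. The comparison rests on 4 of the 15 libraries of the study: 2 of papain basophils and 2 of papain natural helper cells, taken by their labelled names. The mice were C57BL6/J, no age is given in the labels, and papain, a cysteine protease from papaya used to model airway allergy, was given into the nose at 50 ug per mouse over 3 days. Basophils were gated as positive for FceR1 and CD49b and negative for c-kit. Natural helper cells, the innate lymphocytes now called group 2 innate lymphoid cells, were gated as lineage-negative and positive for Thy1.2, IL7Ra and CD25. The same gates on untreated (naive) C57BL6/J mice gave 2 libraries of each cell type, which are used below as a second pair of groups. A further papain library of natural helper cells labelled 3'UTRKO has no replicate and entered no comparison. The labels do not say whether the libraries of a group came from separate mice or pools, so every p-value measures the spread between these libraries only, which may be technical.

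Basophils are rare granulocytes that carry the high-affinity IgE receptor, store histamine and granule proteases, and make interleukin 4 quickly when stimulated. Natural helper cells carry no antigen receptor; they respond to tissue alarmins such as interleukin 33 and are known in the lung for interleukin 5 and interleukin 13, the cytokines of eosinophil survival and of mucus production. GATA factors have textbook roles in both: Gata2 and Gata1 in basophils and mast cells, Gata3 in type 2 lymphocytes.

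Values are FPKM, a fragment count scaled by transcript length and by the size of the library, which the authors rounded to whole numbers. The depth of each library is therefore unknown, so values carry no counting interval. The FPKM of the 4 libraries summed to between 415158 and 570208, and 11524 to 13049 genes were above 0 in each. Over genes averaging at least 10 FPKM, the 2 natural helper cell libraries had a median log2 difference of 0.17, and 3.0% of those genes differed more than 2-fold. The 2 basophil libraries differed by a median of 0.541, and 24.8% of genes differed more than 2-fold. A difference is called here when limma, fitted to log2(FPKM + 1) of all 15 libraries with the spread pooled over groups, gave a Benjamini-Hochberg adjusted p under 0.05 over 14257 genes. Differences are log2 values on that scale, basophils minus natural helper cells, with their standard error (SE), and understate the change of low genes. On simulated data 43 of 177 calls of this fit were false, more than the threshold allows, so adjusted p-values here may be too small.

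The marker genes placed the libraries as labelled. The summed FPKM of 12 basophil markers was 745 and 2232 in the basophil libraries and 49 and 61 in the natural helper cell libraries. That of 14 natural helper cell markers was 728 and 279 in basophils and 5630 and 5518 in natural helper cells. Of the 12 basophil markers, 9 were called higher in basophils and 3 were not called, against 12.6% of all genes called on that side. Of the 14 natural helper cell markers, 10 were called higher in natural helper cells and 4 were not called, against 7.18% of all genes. Of the markers of each sort, Hdc, the enzyme that makes histamine, stood at 375 and 1188 FPKM in basophils and 9 and 14 in natural helper cells. Gata3, the lineage factor of natural helper cells, stood at 7 and 1 FPKM in basophils and 201 and 229 in natural helper cells. Some of these markers encode proteins of the gates (Fcer1a, Itga2, Thy1, Il7r, Il2ra), as does Kit of the mast cell list. The sort bears on the direction of these genes, so their differences are given as a check of the gates. Not all of them were called (Il7r, adjusted p = 0.113).

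Markers of other lung cells were high in the basophil libraries, and several lists differed widely between those 2 libraries. The epithelial and neutrophil sums were above the basophil marker sum (745 and 2232 FPKM) in both. Epithelial markers (12 genes, among them Scgb1a1, the club cell secretoglobin) summed to 21552 and 44422 FPKM in basophils and 745 and 2222 in natural helper cells. Neutrophil markers summed to 3159 and 7472 against 11 and 114. Monocyte and macrophage markers summed to 1323 and 1118 against 29 and 106, and fibroblast markers to 4071 and 1579 against 520 and 714. Basophil library 1 alone held high alveolar macrophage markers (11652 FPKM, against 280 in library 2, 104 and 919 in natural helper cells). It also held high eosinophil markers (524, against 19, 3 and 29) and red blood cell markers (1547, against 171, 69 and 108). B cell markers summed to 115 and 44 against 9 and 19, and 4 of 9 were called higher in basophils (0 without natural helper cell library 1 and 2 without library 2). T cell markers were at 141 in basophil library 1 and at 7 in library 2, against 164 and 196 in natural helper cells. Of the 12 epithelial markers, 10 were called higher in basophils, as were 7 of the 8 blood endothelial markers, against 9 of the 12 basophil markers. A high count on that side was thus not particular to basophil markers. Blood endothelial markers summed to 119 and 367 against 24 and 30, lower in basophil library 1. What part these cells have in any difference below was not tested, and in bulk samples fewer cells of a type and less RNA per cell cannot be told apart.

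**Figure D1:**
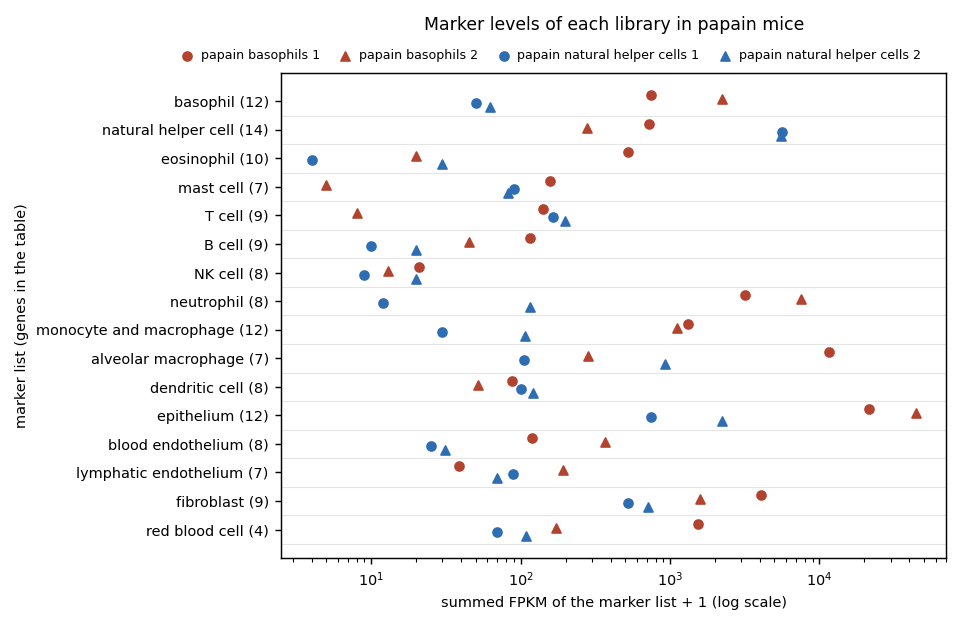
Summed FPKM of each marker list plus 1 (log axis) in the 4 libraries of papain mice, circles for library 1 and triangles for library 2 of each cell type; the number of genes in the table is in brackets. Basophil and natural helper cell markers separate the groups, and the red circle and triangle lie far apart for alveolar macrophage (11652 and 280 FPKM), eosinophil (524 and 19) and red blood cell (1547 and 171) markers.

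Because a different GATA factor was high in each cell type, the short GATA motif (GATAA, or TTATC on the other strand) was looked up in the promoters of the genes that set the cell types apart. Promoters are the 250 bases before and 50 after the gene's start in RefSeq on GRCm38.p6, with 12 of the 12 basophil markers and 10 of the 14 natural helper cell markers found by symbol. The windows below are shown 5′ to 3′ on the gene's strand, with the motif in capitals and 12 bases on either side; of the matches in the promoter of Ms4a2, 1 is shown. Il13 lies at chr11:53634766-53634794 (minus strand) and Ccl1 at chr11:82179826-82179854 (minus strand). The windows of Il1rl1 are at chr1:40429342-40429370 and chr1:40429479-40429507 (plus strand). Those of the IgE receptor chains are at chr1:173227305-173227333 for Fcer1a and chr19:11623740-11623768 for Ms4a2 (both minus strand). Those of the granule proteases are at chr17:25298352-25298380 for Prss34 (plus strand) and chr3:20242210-20242238 for Cpa3 (minus strand).
Il13: atgtggttttcaGATAAtgcccaacaaag
Ccl1: cccgggccttctGATAAaagctcagtaca
Il1rl1, distal: aaggtccatggaGATAAgggtaaaactgg
Il1rl1, proximal: tgtaaagtaactGATAAggaaacagggag
Fcer1a: acaaccctattaTTATCtctggagaaagc
Ms4a2: cagcctggagacTTATCtgacaagtaggt
Prss34: ctgtggaagaaaGATAAatgggaccctgg
Cpa3: gctgttcgtcgaGATAAaagctgaggtat

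The motif was in 25.8% of 27025 promoters of this length. Of the 15 genes with the largest called difference in each direction, 13 had a promoter, and the motif was in 3 of 13 for basophils (23.1%) and in 4 of 13 for natural helper cells (30.8%). It was in 5 of the 12 basophil markers (41.7%: Cd200r3, Cpa3, Fcer1a, Ms4a2 and Prss34) and in 3 of the 10 natural helper cell markers with a promoter (30%: Ccr8, Il1rl1 and Il9r). A match is a description of the letters only. The promoters of Il4, Il5, Hdc, Gata2 and Gata3 held no match in this window, which says nothing of these genes outside it.

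Across all genes, 2813 of 14257 (19.7%) differed between papain basophils and papain natural helper cells. Of these, 1790 were higher in basophils (12.6% of all genes tested) and 1023 were higher in natural helper cells (7.18%), and the median over all genes was 0.00. Counts of list members called below are to be read against these shares. Of the genes higher in basophils, 610 (34.1%) were listed at 0 in both natural helper cell libraries, and of those higher in natural helper cells, 148 (14.5%) were listed at 0 in both basophil libraries. The 4 libraries did not overlap for 3584 of all genes tested with basophils higher (25.1%) and for 3789 with natural helper cells higher (26.6%). A lack of overlap is thus common here, and the genes with the largest differences were chosen for it. The basophil share of the calls, 63.6%, depended on the scaling: it was 72% with median-ratio scaling, 49.3% with quantile normalization and 47.5% with small RNA genes left out and the libraries rescaled, which moved the median of all genes to -0.23. The count fell to 698 without natural helper cell library 1, to 1151 without library 2 and to 1264 without basophil library 2, and was 3773 without basophil library 1. In all 4 of those fits, 355 genes were called higher in basophils and 202 higher in natural helper cells; these are described below as standing without each library. In a fit to the 4 libraries alone, which have 2 residual degrees of freedom, 887 genes passed and 29 of the 176 named genes that had passed still did. Among them were Il5, Il6, Il1rl1, Ccl1, Il3, Kit, Fcer1a, Slc18a2 and Calca, with the direction of Kit and Fcer1a set by the sort. Hdc (adjusted p = 0.0711), Gata2 (0.0828), Gata3 (0.0837), Rora (0.103), Ccl3 (0.0861) and Il1b (0.0852) did not pass there. The fits without 1 library kept the spread pooled over all groups, so standing in them does not cover this.

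**Figure D2:**
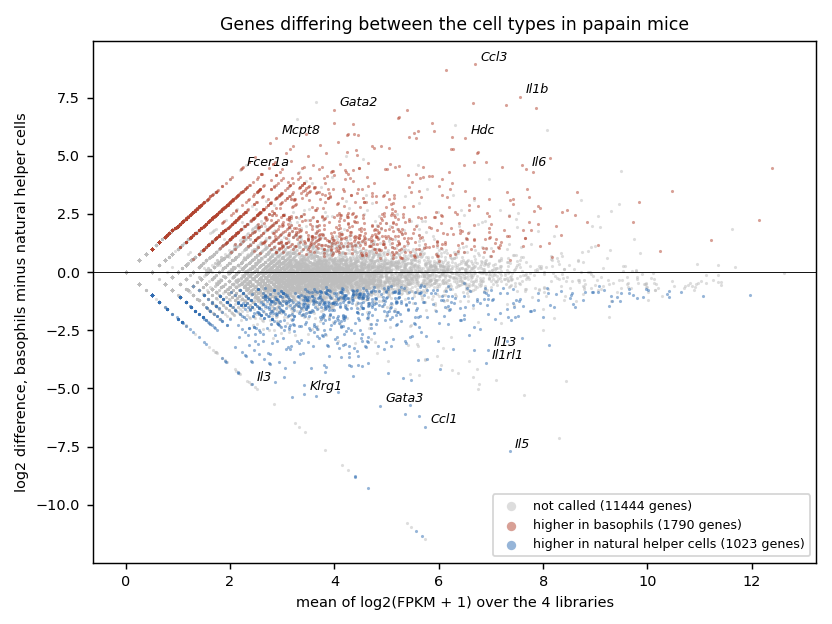
Log2 difference, basophils minus natural helper cells, against the mean of log2(FPKM + 1) over the 4 libraries, 1 point per gene tested; red points are higher in basophils (1790), blue points higher in natural helper cells (1023). Ccl3 (8.92) lies at the top and Il1b (7.52) and Il6 (4.41) below it, and Il5 and Ccl1 lie low on the plot; the points below Il5 are small RNA genes, and the straight lines of points at the left are genes listed at 0 in a group.

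The type 2 cytokines fell on both sides. Il5, the eosinophil growth factor, stood at 12 and 9 FPKM in papain basophils and at 2379 and 2350 in papain natural helper cells. Both natural helper cell libraries were far above both basophil libraries, with a log2 difference of -7.70 ± 0.57 (SE, adjusted p = 0.000217), and the call stood without each library. Il13 stood at 20 and 71 in basophils and at 407 and 377 in natural helper cells, again with no overlap (-3.34 ± 0.55, adjusted p = 0.00477). Il4 went the other way. It stood at 42 and 122 in basophils and at 20 and 24 in natural helper cells, the smallest gap of these cytokines, with a log2 difference of 1.67 ± 0.40 (adjusted p = 0.0227). The Il4 call was lost without natural helper cell library 1 (adjusted p = 0.137) or library 2 (0.0797). Il9, a mast cell and lymphocyte growth factor, was at 2 and 0 in basophils and 2 and 4 in natural helper cells and was not called (adjusted p = 0.154), except without basophil library 1 (0.018). Thus Il4 was the only 1 of these 4 type 2 cytokines called higher in basophils.

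Inflammatory and growth factor cytokines made up most of the basophil side. Il6 stood at 1066 and 828 FPKM in basophils and at 32 and 58 in natural helper cells (4.41 ± 0.31, adjusted p = 0.000178). Il1b stood at 1727 and 3748 against 5 and 31 (7.52 ± 1.10, adjusted p = 0.00254). Osm, the interleukin 6 family cytokine oncostatin M, stood at 277 and 1178 against 6 and 14 (5.80 ± 0.66, adjusted p = 0.000799). Il1rn, the secreted antagonist of the interleukin 1 receptor, was at 166 and 632 against 2 and 10 (5.82 ± 0.76, adjusted p = 0.00163). None of these 4 genes overlapped between the cell types, as for 25.1% of all genes with basophils higher, and their calls stood without each library. Il1a (101 and 252 against 0 and 6) and Csf3, the neutrophil growth factor G-CSF (17 and 170 against 0 and 1), were called but lost their calls without natural helper cell library 1 (adjusted p = 0.0518 and 0.0714). Neutrophil markers, which also express Il1b, were higher in the same libraries.

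Of the 30 cytokine genes tested, 13 were higher in basophils (6 without natural helper cell library 1) and 6 in natural helper cells, with a median of 1.12 against 0.00 for all genes. The natural helper cell side held Il5, Il13, Areg, Il3, Il2 and Csf2, the last 2 named after their values were seen. Areg, the epidermal growth factor family ligand amphiregulin, stood at 32 and 157 in basophils and 524 and 503 in natural helper cells (-2.83 ± 0.76, adjusted p = 0.032). Its call was lost without basophil library 1 (adjusted p = 0.115) or either natural helper cell library (0.15 and 0.12). Il3, a growth factor of basophils and mast cells, was listed at 0 in both basophil libraries and stood at 30 and 25 in natural helper cells (adjusted p = 0.000446). The T cell growth factor Il2 was likewise listed at 0 in basophils and stood at 23 and 15 (adjusted p = 0.000178). Csf2, the growth factor GM-CSF, was at 33 and 64 against 242 and 274 (-2.46, adjusted p = 0.0243). Ligand and receptor lay on opposite sides for this factor: Csf2rb, the shared receptor chain of interleukin 3, interleukin 5 and GM-CSF, stood at 158 and 182 in basophils and 4 and 10 in natural helper cells (4.52 ± 0.32, adjusted p = 0.000178).

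**Figure D3:**
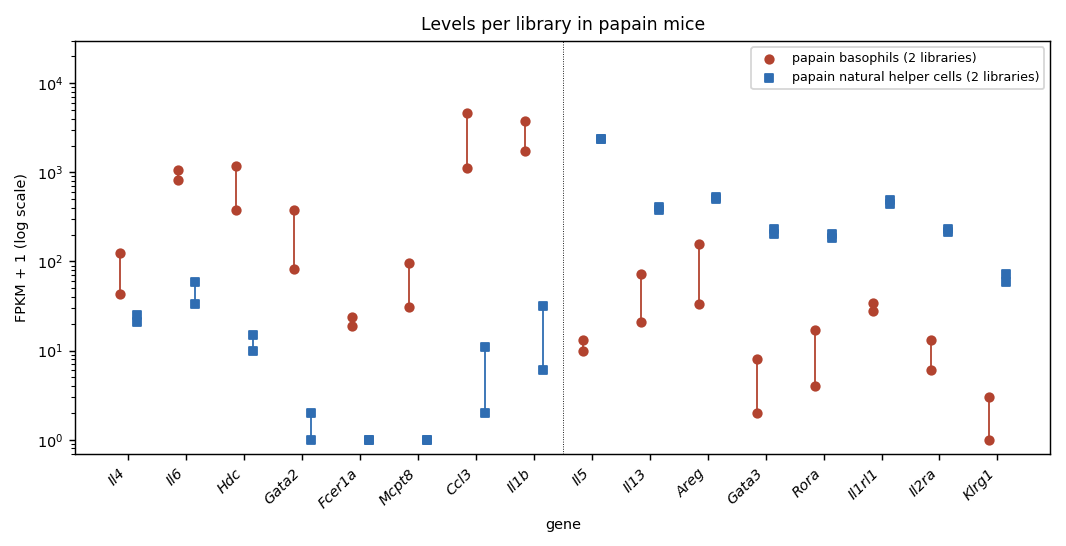
FPKM plus 1 (log axis) of 16 genes in each library of papain basophils (red circles) and papain natural helper cells (blue squares), lines joining the 2 libraries of a group. The 8 genes left of the dotted line were called higher in basophils and the 8 to the right higher in natural helper cells; Il4 has the narrowest gap, from 24 to 42 FPKM.

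Cytokine receptors were called in both directions. Of 38 genes tested, 9 were higher in basophils and 11 in natural helper cells (5 and 7 without natural helper cell library 1), with a median of -0.24. Il1rl1, the receptor of interleukin 33, stood at 27 and 33 FPKM in basophils and 436 and 492 in natural helper cells (-3.91 ± 0.28, adjusted p = 0.000178). Il2ra, the CD25 of the gate, was at 12 and 5 against 228 and 213 (-4.65 ± 0.48, adjusted p = 0.000476). Il9r, the interleukin 9 receptor, was at 1 and 1 against 38 and 29 (-4.10 ± 0.48, adjusted p = 0.000862). Kit, the stem cell factor receptor that the basophil gate selects against, was at 5 and 4 against 89 and 82 (-3.98 ± 0.31, adjusted p = 0.000228). The 4 natural helper cell genes had no overlap and stood without each library, but the sort set the direction of Il2ra and Kit. Il18rap, a chain of the interleukin 18 receptor, was at 15 and 16 against 92 and 67 (-2.27 ± 0.31, adjusted p = 0.00196). Il17rb, the receptor of interleukin 25, another alarmin, was at 11 and 1 against 91 and 65 (-3.99 ± 0.76, adjusted p = 0.00914), a call lost without natural helper cell library 1 (0.0797). Il2rb was at 58 and 3 against 251 and 296, and its call (adjusted p = 0.0454) was lost without basophil library 2 (0.249) or either natural helper cell library (0.171 and 0.166). On the basophil side, Csf3r, the G-CSF receptor known from neutrophils, was at 41 and 51 against 1 and 3 (4.05 ± 0.55, adjusted p = 0.00178). Il7r, whose protein is in the natural helper cell gate, stood at 85 and 40 in basophils and 193 and 151 in natural helper cells and was not called (adjusted p = 0.113).

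CC chemokines were among the largest differences of the comparison. Ccl3, which attracts monocytes and granulocytes, stood at 1116 and 4643 FPKM in basophils and at 1 and 10 in natural helper cells, a log2 difference of 8.92 ± 0.91 (adjusted p = 0.000459). Ccl4, a close relative with the same receptor, stood at 674 and 3074 against 1 and 5 (8.70 ± 0.72, adjusted p = 0.000247). Ccl9 was at 333 and 657 against 1 and 6 (6.97 ± 0.63, adjusted p = 0.000415) and Ccl6 at 1686 and 1395 against 22 and 113 (4.91 ± 0.82, adjusted p = 0.00531). In each of these 4 genes the lower basophil library was at least 10 times the higher natural helper cell library, and each call stood without each library. Of 30 chemokines tested, 12 were higher in basophils (6 without natural helper cell library 1) and 2 in natural helper cells, with a median of 2.52. The exceptions were Ccl1 and Xcl1, the latter named after its values were seen. Ccl1, a ligand of Ccr8, stood at 6 and 3 against 457 and 625 (-6.66 ± 0.57, adjusted p = 0.000297). Xcl1 stood at 2 and 0 against 12 and 17, and its call (adjusted p = 0.0439) is 1 of the 2 that fell to 1 in the list without basophil library 2 or either natural helper cell library. Ccl5 was at 73 and 392 in basophils and 76 and 92 in natural helper cells, so the lower basophil library lay below both, and it was not called (adjusted p = 0.554).

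Of 18 chemokine receptors, 4 were higher in basophils and 3 in natural helper cells, with a median of -0.57. Ccr1, a receptor of Ccl3 and Ccl9, stood at 58 and 21 in basophils and 2 and 3 in natural helper cells (3.38 ± 0.54, adjusted p = 0.00407). Cxcr2, the neutrophil chemokine receptor, stood at 33 and 21 against 3 and 6 (2.37 ± 0.34, adjusted p = 0.00251). Ccr8, the receptor of Ccl1, stood at 23 and 0 against 341 and 334 (-6.11 ± 1.22, adjusted p = 0.0113). Basophil library 1 alone held Ccr8, and the call was lost without natural helper cell library 1 (0.0796) or library 2 (0.0592), as were those of Ccr4 (0.086 and 0.0849) and Ccr2 (0.178 and 0.154), both also lost without basophil library 2 (0.104 and 0.0636). The natural helper cell count of 3 was then 0 without either of that cell type's libraries, 1 without basophil library 2 and 5 without basophil library 1. The basophil count of 4 was 2 without basophil library 1 or either natural helper cell library.

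The chains of the IgE receptor were called on the basophil side. Fcer1a, the IgE-binding chain selected by the gate, stood at 23 and 18 FPKM in basophils and was listed at 0 in both natural helper cell libraries (adjusted p = 0.000432). Ms4a2, the receptor's beta chain, stood at 5 and 5 and was likewise listed at 0 (adjusted p = 0.000751). Fcer1g, the gamma chain that other Fc receptors share, stood at 446 and 911 against 10 and 29 (5.14 ± 0.51, adjusted p = 0.000446). The IgG receptors Fcgr3 (181 and 244 against 2 and 8) and Fcgr2b (101 and 148 against 1 and 6) differed by 5.34 ± 0.58 and 5.04 ± 0.49 (adjusted p = 0.000636 and 0.000446). These genes had no overlap and stood without each library, and macrophages and neutrophils are also known to express the Fc gamma receptors and the gamma chain. Of the 21 genes of this list tested, 9 were higher in basophils and 5 in natural helper cells, with a median of 0.63. The 5 were Lat, Inpp5d, Itpr1, Stim1 and Orai1, of which all but Lat are named after their values were seen. Stim1 and Orai1, the sensor and channel of store-operated calcium entry, were at 9 and 4 against 24 and 28 (-1.93, adjusted p = 0.0258) and at 23 and 22 against 51 and 59 (-1.25, adjusted p = 0.00389). The natural helper cell count fell from 5 to 2 without basophil library 2 or either natural helper cell library.

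Several granule proteases were called on the basophil side. Mcpt8, the basophil protease, stood at 30 and 95 FPKM in basophils and Prss34, another basophil serine protease, at 7 and 20, and both were listed at 0 in natural helper cells (adjusted p = 0.0011 and 0.0314). The Prss34 call was lost without basophil library 2 (0.177) or either natural helper cell library (0.146 and 0.122). Gzmc, a granzyme, stood at 296 and 992 against 4 and 7 (6.42 ± 0.62, adjusted p = 0.000446), and Gzmb at 295 and 739 against 8 and 15 (5.29 ± 0.68, adjusted p = 0.0015). Granzyme genes are close in sequence, so how reads were shared among them is uncertain. Of 23 granule genes tested, 6 were higher in basophils and none in natural helper cells, with a median of 1.66, and 16 of them were listed at 0 in both libraries of a group. Mast cell chymase and tryptase genes (Cma1 at 51 and 0, Tpsb2 at 51 and 0, Mcpt4 at 45 and 0) were present in basophil library 1 only and were not called. Without basophil library 2 they were called (adjusted p = 0.00485, 0.0024 and 0.00172).

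Some histamine and monoamine genes lay on the side of Hdc, which differed by 5.77 ± 0.57 (adjusted p = 0.000446). Slc18a2, the vesicular transporter that loads amines into granules, stood at 142 and 163 FPKM in basophils and 15 and 16 in natural helper cells (3.21 ± 0.25, adjusted p = 0.000228). Slc6a4, the serotonin transporter, stood at 11 and 9 and was listed at 0 in natural helper cells (adjusted p = 0.000228). Tph1, the enzyme of the first step of serotonin synthesis outside the brain, went the other way, at 1 and 0 against 11 and 22 (-3.55 ± 0.64, adjusted p = 0.00728), a call lost without basophil library 2 (0.0539) or natural helper cell library 2 (0.0544). Of 12 genes tested, 5 were higher in basophils (3 with quantile normalization), 1 was higher in natural helper cells and 6 were not called, with a median of 1.04. Slc6a4 and Slc18a2, of amine uptake and storage, lay on the basophil side and the serotonin enzyme Tph1 on the other.

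Eicosanoid genes were called in both directions, 10 higher in basophils and 6 in natural helper cells of 25 tested, with a median of -0.00. Enzymes led the basophil side. Alox5ap, the activating protein of 5-lipoxygenase, stood at 381 and 505 against 12 and 25 (4.58 ± 0.35, adjusted p = 0.000228). Alox15, the 15-lipoxygenase, stood at 10 and 21 against 0 and 1 (3.46 ± 0.37, adjusted p = 0.000636), and Pla2g7, which inactivates platelet activating factor, at 46 and 46 against 0 and 2 (4.76 ± 0.66, adjusted p = 0.00197). These 3 stood without each library. Ltc4s, the leukotriene C4 synthase, was at 32 and 10 against 0 and 2 (3.46 ± 0.97, adjusted p = 0.0372), and its call was lost in each of the 4 fits without a library (adjusted p from 0.0685 to 0.23). On the natural helper cell side, Cysltr2, a cysteinyl leukotriene receptor, was at 2 and 0 against 39 and 37 (-4.49 ± 0.92, adjusted p = 0.0126), a call lost without basophil library 2 (0.0885) or either natural helper cell library (0.0881 and 0.0631). The counts were 3 and 1 without natural helper cell library 1 and 6 and 3 without basophil library 2. The basophil count was also 6 without basophil library 1, and the natural helper cell count 2 without natural helper cell library 2.

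Transcription factors gave each cell type its own list. Of 26 factors of innate lymphoid cells, 14 were higher in natural helper cells and 1 (Id3, named after its values were seen) in basophils, with a median of -1.48. Gata3 differed by -5.75 ± 0.60 (adjusted p = 0.000523). Rora, the orphan receptor required for natural helper cells, stood at 16 and 3 FPKM in basophils and 200 and 184 in natural helper cells (-4.55 ± 0.62, adjusted p = 0.00179). Both stood without each library and did not overlap, but neither passed in the fit to the 4 libraries alone (adjusted p = 0.0837 and 0.103). Tox (2 and 0 against 20 and 18), Runx3 (7 and 1 against 28 and 34) and Ikzf3 (40 and 4 against 128 and 108) were called with adjusted p of 0.00687, 0.0126 and 0.0257. All 3 were lost without natural helper cell library 1 (0.0585, 0.0755 and 0.138), Runx3 and Ikzf3 also without library 2 (0.0736 and 0.0977), and Runx3 without basophil library 2 (0.0532). The count of 14 was 5 without basophil library 2 and 4 without either natural helper cell library, and Id3 was not called in any of those fits. T cell markers moved the same way between the basophil libraries, at 141 in library 1 and 7 in library 2.

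On the other side, of 24 factors of granulocytes 11 were higher in basophils (7 without natural helper cell library 1) and 4 in natural helper cells (1 without either of that cell type's libraries), with a median of 1.12. Gata2 stood at 82 and 378 FPKM in basophils and at 0 and 1 in natural helper cells (6.97 ± 0.69, adjusted p = 0.000446). Gata2 and Gata3 thus lay on opposite sides, with no overlap between the cell types in either gene. Cebpa, the myeloid factor, stood at 29 and 48 against 1 and 3 (3.76 ± 0.49, adjusted p = 0.00155), and Cebpb at 453 and 939 against 52 and 91 (3.23 ± 0.36, adjusted p = 0.000704). Nfe2 (14 and 32) and Gfi1b (4 and 17), both known from megakaryocytes and red cell precursors, were listed at 0 in natural helper cells (adjusted p = 0.000228 and 0.00256). Itga2b, the platelet and mast cell integrin chain, was at 29 and 119 against 0 and 1 (5.41 ± 0.60, adjusted p = 0.00071). All of these stood without each library. Ikzf1, the lymphoid factor Ikaros, was at 12 and 3 against 45 and 44 (-2.66 ± 0.53, adjusted p = 0.0111), lost without natural helper cell library 1 (0.0787) or 2 (0.0569).

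Genes of T cell receptor signalling were called on the natural helper cell side. Of 27 tested, 8 were higher in natural helper cells and none in basophils (1 with median-ratio scaling or quantile normalization), with a median of -1.72. Zap70, the receptor's kinase, stood at 11 and 1 FPKM in basophils and 79 and 81 in natural helper cells (-4.05 ± 0.95, adjusted p = 0.0205). Sh2d2a, an adaptor, stood at 10 and 2 against 93 and 92 (-4.02 ± 0.80, adjusted p = 0.0112). In both, basophil library 1 was higher than library 2 and below both natural helper cell libraries. Without basophil library 2, natural helper cell library 1 or natural helper cell library 2 none of the 8 was called: Zap70 had adjusted p of 0.114, 0.114 and 0.093, and Sh2d2a 0.0759, 0.0788 and 0.0586. Chains of the T cell receptor complex were not at 0: Cd3g stood at 63 and 5 against 92 and 100 and Cd3e at 28 and 1 against 25 and 31, and none of the 9 T cell markers was called.

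Costimulatory genes divided evenly, 7 in each direction of 30 tested, with a median of -0.42. Tnfrsf25, the death receptor 3 that costimulates innate lymphocytes, stood at 5 and 2 FPKM in basophils and 51 and 51 in natural helper cells (-3.62 ± 0.33, adjusted p = 0.000425). Tnfrsf18, the receptor GITR, stood at 25 and 39 against 323 and 324 (-3.33 ± 0.42, adjusted p = 0.00139), and Klrg1, an inhibitory receptor of mature natural helper cells, at 2 and 0 against 72 and 58 (-5.24 ± 0.62, adjusted p = 0.000929). These 3 stood without each library. Pdcd1, the checkpoint receptor PD-1, stood at 35 and 0 against 328 and 309 (-5.73 ± 1.34, adjusted p = 0.0204), lost without natural helper cell library 1 (0.115) or 2 (0.0902). Cd200r3, an activating receptor of basophils, stood at 22 and 41 in basophils and was listed at 0 in natural helper cells (adjusted p = 0.00142). Without natural helper cell library 1 or 2 the counts were 1 for basophils and 3 for natural helper cells. They were 1 and 4 without basophil library 2, and the basophil count was 4 without basophil library 1. Of 17 ligands of the TNF family, 2 were higher in basophils and 5 in natural helper cells, with a median of -0.79. The basophil count was near the share of all genes (12.6%), and that of natural helper cells was above it (7.18%). Tnfsf4, the ligand OX40L that stimulates T cells, stood at 3 and 0 against 81 and 76 (-5.31 ± 0.62, adjusted p = 0.000855) and stood without each library. Tnf stood at 71 and 101 in basophils and 16 and 21 in natural helper cells (2.15 ± 0.44, adjusted p = 0.0127), lost without basophil library 2 (0.0833) or natural helper cell library 1 (0.102). The natural helper cell count of 5 was 2 without natural helper cell library 1, 3 without library 2 and 8 without basophil library 1, and the basophil count of 2 was 0 without natural helper cell library 1 and 1 without its library 2 or basophil library 1.

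Pattern recognition receptors had the highest share of basophil calls of the 26 pathway lists. Of 23 tested, 15 were higher in basophils (9 without natural helper cell library 1) and 1 in natural helper cells (Tlr12, at 1 and 1 FPKM and listed at 0 in basophils, named after its values were seen, and not called without either natural helper cell library), with a median of 2.35. Clec4d and Clec4e, a pair of C-type lectin receptors of myeloid cells, stood at 224 and 613 against 1 and 6 (6.63 ± 0.78, adjusted p = 0.000905) and at 165 and 208 against 0 and 4 (6.38 ± 0.81, adjusted p = 0.00144). Cd14, the endotoxin coreceptor, stood at 397 and 588 against 5 and 24 (5.30 ± 0.68, adjusted p = 0.0015). The formyl peptide receptors Fpr1 (52 and 44 against 0 and 4) and Fpr2 (37 and 105 against 0 and 3) were called with adjusted p of 0.00671 and 0.00357. No library of 1 cell type reached the other in these genes, and the calls stood without each library. Monocyte and neutrophil markers were higher in the same libraries: S100a8, a neutrophil granule gene, stood at 1777 and 4038 against 6 and 59 (7.03 ± 1.21, adjusted p = 0.00594), a call lost without natural helper cell library 1 (0.0518). S100a9 stood at 1154 and 3025 against 4 and 33 (7.16 ± 1.26, adjusted p = 0.00654), lost without natural helper cell library 1 (0.0655) or basophil library 2 (0.051). Lcn2, another neutrophil and epithelial gene, stood at 90 and 1554 against 1 and 6 (6.65 ± 1.12, adjusted p = 0.00534), lost without natural helper cell library 1 (0.0562).

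Other genes among the largest basophil differences came from interferon-inducible and metabolic families. Ifitm1, an interferon-inducible membrane protein also known from basophils, stood at 646 and 2384 FPKM against 5 and 10 (7.26 ± 0.64, adjusted p = 0.000342). Irg1, which makes itaconate, stood at 273 and 865 against 5 and 8 (6.05 ± 0.55, adjusted p = 0.000424). Cyp4f18, a leukotriene-degrading cytochrome, stood at 86 and 254 against 1 and 2 (5.93 ± 0.48, adjusted p = 0.000247), and Cyp11a1, the first enzyme of steroid synthesis, at 101 and 281 against 1 and 3 (5.91 ± 0.56, adjusted p = 0.000446). Saa3, an acute phase gene, stood at 142 and 1083 against 2 and 11 (6.04 ± 0.92, adjusted p = 0.00335). Basophil library 2 was the higher in all 5, and the calls stood without each library. Of 23 interferon response genes, 14 were higher in basophils and none in natural helper cells, with a median of 1.45. Isg15, a ubiquitin-like interferon-induced protein, stood at 42 and 224 against 11 and 12 (2.98 ± 0.72, adjusted p = 0.0232), and Oasl1 at 7 and 31 against 0 and 1 (3.50 ± 0.79, adjusted p = 0.0181). Basophil library 2 held most of this signal: the list summed to 267 and 808 FPKM in basophils and 130 and 149 in natural helper cells, and the count fell to 1 without basophil library 2, 0 without natural helper cell library 1 and 2 without natural helper cell library 2. Isg15 then had adjusted p of 0.104, 0.13 and 0.0959, and Oasl1 lost its call without basophil library 2 (0.104) and natural helper cell library 1 (0.135).

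Among the largest natural helper cell differences were those of Stab2, Hlf, Pcsk1 and Rln3. Stab2, a scavenger receptor for hyaluronan, stood at 1 and 0 FPKM in basophils and 72 and 45 in natural helper cells (-5.36 ± 0.50, adjusted p = 0.000446). It is also in the list of lymphatic endothelial markers and made up most of that list's sums in papain natural helper cells (88 and 69). The part of lymphatic cells in its values was not tested. Hlf, a transcription factor known from stem cells, stood at 3 and 1 against 121 and 81 (-5.14 ± 0.44, adjusted p = 0.000309). Pcsk1, a convertase that cuts peptide hormones, stood at 3 and 0 against 51 and 63 (-4.85 ± 0.62, adjusted p = 0.00145), and Rln3, the peptide relaxin 3, at 1 and 0 against 30 and 45 (-4.74 ± 0.33, adjusted p = 0.000178). These calls stood without each library. Peptides and their receptors were also frequent in the fixed list: of 19 neuropeptide and lipid receptor genes tested, 9 were higher in natural helper cells and 1 in basophils (Adora2b, an adenosine receptor named after its values were seen, and not called without basophil library 2 or natural helper cell library 1), with a median of -1.29. Calca, the gene of calcitonin and calcitonin gene-related peptide, stood at 93 and 92 against 860 and 780 (-3.13 ± 0.51, adjusted p = 0.00468). Ramp1, a subunit of that peptide's receptor, stood at 13 and 4 against 61 and 66 (-2.95 ± 0.46, adjusted p = 0.00362), and Vipr2, a receptor of vasoactive intestinal peptide, at 1 and 1 against 22 and 22 (-3.52 ± 0.37, adjusted p = 0.000531). These 3 stood without each library, and the count of 9 was 5 without basophil library 2 or natural helper cell library 1 and 4 without natural helper cell library 2. Ramp3, a related subunit, was at 254 and 44 against 576 and 644 and was not called (adjusted p = 0.129).

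Adhesion genes were higher in basophils for 12 of 26 (7 without basophil library 2, 4 without natural helper cell library 1) and in natural helper cells for 6 (2 without basophil library 2, 1 without either natural helper cell library), with a median of 1.09. Cd9, a tetraspanin, stood at 1009 and 985 FPKM in basophils and 30 and 79 in natural helper cells (4.32 ± 0.42, adjusted p = 0.000446). Itgam, the integrin CD11b, stood at 29 and 32 against 0 and 1 (4.48 ± 0.29, adjusted p = 0.000178), and Cd24a, a surface sialoprotein, at 173 and 308 against 11 and 26 (3.69 ± 0.36, adjusted p = 0.000446). These 3 stood without each library. Vcam1, an endothelial and stromal ligand, stood at 149 and 409 against 4 and 23 (4.50 ± 0.95, adjusted p = 0.0139), lost without basophil library 2 (0.0971) or natural helper cell library 1 (0.113), and blood endothelial markers were higher in the same libraries.

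Stimulus-induced genes were called in both directions. Of 30 immediate early genes, 6 were higher in basophils and 7 in natural helper cells, with a median of 0.24. Egr1, an early growth response factor, stood at 99 and 193 FPKM in basophils and 23 and 29 in natural helper cells (2.38 ± 0.36, adjusted p = 0.00297), and Ier3 at 496 and 1821 against 26 and 56 (4.60 ± 0.57, adjusted p = 0.00125). Both stood without each library. The orphan receptors Nr4a2 and Nr4a3 were on the other side, at 24 and 11 against 105 and 126 (-2.74 ± 0.66, adjusted p = 0.0224) and at 71 and 18 against 231 and 256 (-2.72 ± 0.65, adjusted p = 0.0214). Each was lost without basophil library 2 (0.133 and 0.111) or a natural helper cell library (0.109 and 0.111 for Nr4a2, 0.111 and 0.102 for Nr4a3). The counts were 2 and 2 without natural helper cell library 1, 3 and 2 without library 2, and 2 and 4 without basophil library 2; the basophil count was 11 without basophil library 1. Of 20 SOCS and STAT5 target genes, 8 were higher in basophils and 2 in natural helper cells, with a median of 0.34 (2 and 1 without natural helper cell library 1, 5 and 1 without library 2, 3 basophil calls without basophil library 2, 1 natural helper cell call without basophil library 1 and 4 with quantile normalization). Id1, an inhibitor of differentiation factors, stood at 39 and 123 against 2 and 3 (4.35 ± 0.51, adjusted p = 0.000942), and Bcl2, the survival gene, at 3 and 1 against 25 and 29 (-3.30 ± 0.57, adjusted p = 0.00596), and both stood without each library.

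Tissue repair genes were higher in basophils for 8 of 26 and in natural helper cells for 1, Areg, with a median of 1.72. Hgf, the hepatocyte growth factor, stood at 40 and 51 FPKM in basophils and was listed at 0 in both natural helper cell libraries (adjusted p = 0.000178). Arg2, the mitochondrial arginase, stood at 18 and 54 against 1 and 2 (3.72 ± 0.56, adjusted p = 0.00308). Arg1, the cytosolic arginase that natural helper cells are known for, stood at 233 and 19 against 297 and 319 and was not called (adjusted p = 0.174), except without basophil library 1 (0.00987). Retnla, an alternative activation gene, stood at 3714 and 2807 against 98 and 261 and was not called (adjusted p = 0.086). The basophil count was 3 without natural helper cell library 1 and 4 without library 2, and the Areg call was absent without either.

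Housekeeping programmes gave unequal counts, against shares of all genes of 12.6% higher in basophils and 7.18% higher in natural helper cells. The unfolded protein response count on the basophil side was near that share. None of 24 oxidative phosphorylation genes was called, with a median of -0.19; 3 were called with quantile normalization and 8 without basophil library 1, all higher in natural helper cells. Of 30 cell cycle genes 1 was called, Mcm5, a replication helicase subunit, at 6 and 0 FPKM against 22 and 18 (-2.98 ± 0.85, adjusted p = 0.0401). Without basophil library 1 the count was 14, and without any other of the 4 libraries 0 (Mcm5 then at adjusted p of 0.204, 0.182 and 0.129); it was 5 with quantile normalization and 2 with median-ratio scaling. Of 30 cytosolic ribosomal protein genes, 13 were higher in natural helper cells and none in basophils, with a median of -0.75. Rpl4 stood at 689 and 646 against 1367 and 1444 (-1.07 ± 0.22, adjusted p = 0.0122), lost without basophil library 2 (0.0574) or a natural helper cell library (0.0739 and 0.0687). The ribosomal count was 3 with median-ratio scaling, 8 without basophil library 1 and 0 without any other library. Glycolysis genes were higher in basophils for 7 of 23 and in natural helper cells for 2, with a median of 0.25 (4 without basophil library 2 and 2 without either natural helper cell library for basophils, and 0 for natural helper cells without any 1 of the 4 libraries or with median-ratio scaling). Pfkfb4, a regulator of glycolytic flux, stood at 7 and 7 against 1 and 1 (2.00 ± 0.32, adjusted p = 0.00404) and stood without each library. Of 23 unfolded protein response genes, 3 were higher in basophils (0 without natural helper cell library 1, 1 without any other library) and none in natural helper cells (3 without basophil library 1), with a median of 0.13. Antigen presentation gave 1 call in each direction of 15, Cd74 for basophils and H2-K1 for natural helper cells, the latter named after its values were seen, with a median of 0.94. Neither count exceeded the share of all genes. Cd74, the invariant chain, stood at 1090 and 755 against 147 and 189 (2.44 ± 0.69, adjusted p = 0.0398), and its call was lost in each fit without a library (adjusted p from 0.107 to 0.191). B cell markers, at 115 and 44 against 9 and 19, and monocyte and macrophage markers were higher in the same libraries, and their part in the Cd74 values was not tested. With median-ratio scaling 6 of the 15 were higher in basophils, and with quantile normalization 2.

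**Figure D4:**
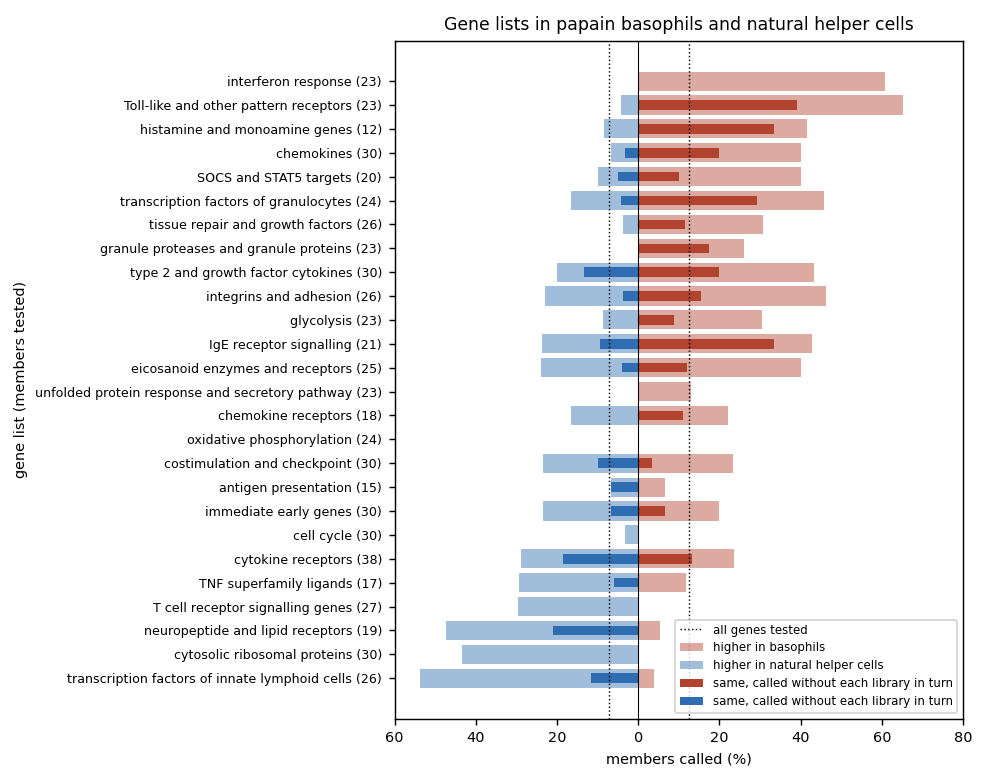
Percent of the tested members of each pathway list called higher in basophils (red, right) or in natural helper cells (blue, left), with the number tested in brackets; darker inner bars are members called whichever of the 4 libraries is left out, and dotted lines mark all genes (12.6% and 7.18%). Pattern receptors, cytokines and the IgE list keep dark bars on the right, whereas the interferon, T cell receptor signalling and ribosomal lists have none.

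The same cell types were compared in naive mice. The 2 comparisons share no library between their groups, but both come from 1 fit with the spread pooled over all groups, so their p-values are not independent. There 2935 genes (20.6%) differed, of which 992 were higher in basophils (6.96% of genes tested) and 1943 in natural helper cells (13.6%), with a median of -0.34 over all genes; the basophil share was 50.9% with median-ratio scaling (median -0.06) and 50.1% with quantile normalization (median -0.02), against 33.8%. The naive count fell to 1363 without naive basophil library 2, 1556 without naive natural helper cell library 1 and 1822 without its library 2. Genes called higher in basophils in both states numbered 486, which is 27.2% of the papain set and 49% of the naive set. Those called higher in natural helper cells in both numbered 523, or 51.1% and 26.9%. Of the papain basophil calls, 480 (26.8%) were listed at 0 in both naive basophil libraries. Of the calls that stood without each papain library, 216 of 355 basophil genes (60.8%) and 155 of 202 natural helper cell genes (76.7%) were also called in naive mice. Hdc, Gata2, Ccl3, Ccl4, Fcer1a and Mcpt8 were on the basophil side and Il5, Gata3, Rora, Ccl1, Calca and Rln3 on the natural helper cell side in naive mice too. Il5 stood at 0 and 0 FPKM in naive basophils and 501 and 2283 in naive natural helper cells.

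The cell type difference itself changed with papain for 963 genes (6.75%), tested as the papain difference minus the naive difference. It moved towards basophils for 661 (4.64%) and towards natural helper cells for 302 (2.12%), a split of 68.6% that was 54.4% with small RNA genes left out and 42.9% with quantile normalization, with a median over all genes of 0.36 (0.13 and -0.03 in those settings). Without papain natural helper cell library 1, papain natural helper cell library 2, naive basophil library 2 or naive natural helper cell library 1, the count was 288, 426, 328 or 504, and it was 1691 without papain basophil library 1. Il13 was among the cytokines called as changed. In naive mice it stood at 169 and 226 FPKM in basophils and 93 and 218 in natural helper cells, overlapping groups that did not differ (0.45, adjusted p = 0.599). In papain mice all basophil values lay under all natural helper cell values. Basophil values of Il13 were lower in papain than in naive mice, as were the summed basophil markers (745 and 2232 against 7097 and 6194 FPKM). Whether fewer basophils or less RNA per basophil stood behind the lower values cannot be told apart. The difference of differences was -3.79 ± 0.78 (adjusted p = 0.0242). It was lost without papain natural helper cell library 1 (0.0971) or 2 (0.0725), naive basophil library 2 (0.0889) or naive natural helper cell library 1 (0.0792).

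Some genes of the basophil side had a narrower gap in papain mice. Il6 stood at 2713 and 3535 FPKM in naive basophils and 29 and 38 in naive natural helper cells, and its difference was smaller by -2.09 ± 0.43 with papain (adjusted p = 0.0258; 0.0645 with quantile normalization). That call was lost without papain basophil library 2 (0.0677), papain natural helper cell library 2 (0.0682), naive basophil library 2 (0.0933) or naive natural helper cell library 1 (0.0891). Ms4a2 stood at 47 and 50 in naive basophils, Fcer1a at 141 and 194 and Mcpt8 at 824 and 252, all above both papain basophil values of 5 and 5, 23 and 18, and 30 and 95. The summed basophil markers were 7097 and 6194 in naive and 745 and 2232 in papain basophils, while epithelial markers were 6808 and 8788 against 21552 and 44422; whether fewer basophils or less RNA per basophil stood behind this cannot be told apart. Of the 12 basophil markers, 3 (Cyp11a1, Fcer1a and Ms4a2) were called as moved towards natural helper cells and none towards basophils. With a pseudocount of 0.1 the changes of Fcer1a and Ms4a2 were of like size (-3.02 against -2.96, and -3.25 against -3.04) but not called (adjusted p = 0.392 and 0.198). Those of Fcer1a and Cyp11a1 were also lost without either papain natural helper cell library (0.0801 and 0.0658 for Fcer1a, 0.0725 and 0.129 for Cyp11a1), naive basophil library 2 (0.0731 and 0.119) or a naive natural helper cell library. The call of Cyp11a1 was lost as well without papain basophil library 1 (0.0613) or naive basophil library 1 (0.0824). Il4 stood at 353 and 319 in naive basophils and 19 and 25 in naive natural helper cells, so its naive difference was 3.88 (adjusted p = 0.00032) and the change with papain, -2.22 ± 0.57, was not called (adjusted p = 0.053).

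The differences of Il1rl1 and Il18rap moved towards natural helper cells, whereas that of Il17rb was not called as changed (0.10 ± 1.08, adjusted p = 0.995). Il1rl1 stood at 98 and 79 FPKM in naive basophils and 244 and 288 in naive natural helper cells. With papain the basophil values were lower, 27 and 33, and the natural helper cell values higher, 436 and 492, and the difference changed by -2.33 ± 0.39 (adjusted p = 0.0115), a call that stood in all 8 fits without a library. Il18rap changed sides: it stood at 156 and 165 in naive basophils and 29 and 27 in naive natural helper cells (2.48, adjusted p = 0.0009), and at 15 and 16 against 92 and 67 with papain. Its difference changed by -4.75 ± 0.44 (adjusted p = 0.00181), which also stood in all 8 fits. Il1r2, the decoy receptor of interleukin 1, was called in naive mice (82 and 100 against 6 and 2) but stood at 75 and 54 against 66 and 68 with papain; its change, -4.39 ± 0.74 (adjusted p = 0.0116), was lost without papain natural helper cell library 1 (0.054) or naive basophil library 2 (0.0518). Of the 74 genes on the basophil side in papain and the natural helper cell side in naive mice, and the 22 that went the other way, Il18rap belongs to the 22. The basophil values of Il1rl1 and Il18rap were lower with papain, as were the summed basophil markers (7097 and 6194 naive, 745 and 2232 papain). Fewer basophils and less RNA of these genes per basophil cannot be told apart.

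**Figure D5:**
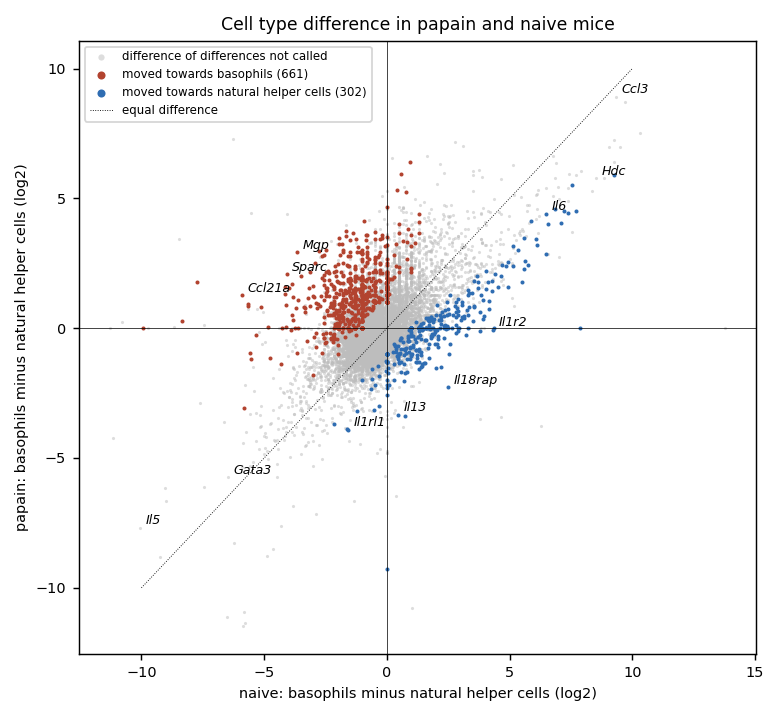
Log2 difference, basophils minus natural helper cells, in papain mice (vertical) against naive mice (horizontal), 1 point per gene; red and blue points are the 661 and 302 genes whose difference moved towards basophils or natural helper cells, and the dotted line marks equal differences. Il5, Gata3 and Ccl3 keep their side, Il18rap lies across the zero lines, and Mgp, Sparc and Ccl21a are far above the line.

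Matrix genes were among the largest moves towards basophils, beside the Ccl21 chemokine genes (up to 7.17 for Ccl21a). Mgp, matrix Gla protein, stood at 39 and 2 FPKM in naive basophils and 3141 and 1201 in papain basophils, and at 152 and 124 in naive and 183 and 352 in papain natural helper cells. Sparc, a matrix glycoprotein, went from 4 and 1 to 348 and 197 in basophils, against 40 and 68 and then 48 and 79. Their changes were 6.59 ± 1.49 (adjusted p = 0.0357) and 6.14 ± 0.73 (adjusted p = 0.00387); that of Sparc stood in all 8 fits, and that of Mgp was lost in 7 of them, with adjusted p up to 0.145. Fibroblast markers, a list of 9 that holds Mgp itself, summed to 53 and 5 in naive and 4071 and 1579 in papain basophils. Mgp made up most of both papain sums, so these sums are not separate from its change. Of the 9, 6 were called as moved towards basophils, Mgp among them. The part of stromal RNA in these changes was not tested.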

How the data were processed

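RNA sequencing of sorted lung cells was compared between 2 papain basophil and 2 papain natural helper cell libraries, with 2 naive libraries of each type as a further comparison. The score values in the deposited table are FPKM per gene that the authors rounded to whole numbers, as the values themselves show. The submitters' processing notes name TopHat 1.4.0, Cufflinks 1.3.0 and mm9, without their order or settings. Because the values are rounded FPKM, depth could not be recovered and no count model was used. limma 3.58.1 in R 4.3.3 was fitted to log2(FPKM + 1) of all 15 libraries, 1 coefficient per group, with a trend in the variance, on 14257 genes with at least 1 FPKM in at least 2 libraries. Tests were two-sided, with Benjamini-Hochberg adjustment over all genes tested and a threshold of 0.05. On simulated data the fit made more false calls than that threshold allows: 43 of 177 calls were false. Of these 43, 33 were in genes averaging under 5 FPKM in both cell types, so calls of low genes are the least secure. The simulation changed far fewer genes than were called in the data, so the share of false calls there need not hold here. Tables were read with Python 3.11.15 and pandas 2.3.3.

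The comparison and the gene lists were chosen with earlier results of these data known, so no list is independent support for a direction. Named genes were fixed genes, the 15 genes with the largest called difference in each direction among those averaging at least 20 FPKM without overlap (small RNA genes passed over), the 6 members of each pathway list with the largest difference among those averaging at least 5 FPKM, marker genes, and up to 6 genes per direction with the largest called change between papain and naive. Some genes that this rule selects may not be reported here. Pseudocounts, filters, scalings, a fit to the compared libraries alone, library weights, a replicate block and the removal of each library were tried as alternatives.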

Additional observations from a re-analysis of the deposited data

Results flagged for a closer look

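The genes below had a cell type difference that itself differed between papain and naive mice by limma's test of the difference of differences (log2, papain minus naive, Benjamini-Hochberg adjusted p over all genes). No cause was tested.

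Towards basophils moved Ccl21a (7.17, adjusted p = 0.0133), Ccl21b (6.60, 0.00801) and Ccl21c (6.49, 0.0113), chemokines of lymphatic vessels that are nearly identical in sequence, so that their separate values are uncertain. In basophils Ccl21a stood at 2 and 0 FPKM (naive) and 11 and 92 (papain), and in natural helper cells at 103 and 102 (naive) and 11 and 15 (papain). Lymphatic endothelial markers, a list of 7 that holds Ccl21a itself, summed to 7 and 0 (naive) and 38 and 192 (papain) in basophils. In natural helper cells they summed to 215 and 162 (naive) and 88 and 69 (papain). Of the 7, 3 were called as moved towards basophils, Ccl21a among them. These sums and this count are thus in part Ccl21a set against itself. The part of lymphatic cells in the Ccl21 values was not tested. The calls of Ccl21a and Ccl21c were lost without papain natural helper cell library 1 (0.0637 and 0.0572) or naive basophil library 2 (0.0553 and 0.0514). Mgp (6.59) and Sparc (6.14), matrix genes, and Clec3b (5.95, adjusted p = 0.00492), the gene of tetranectin, moved the same way, and Clec3b was lost with a pseudocount of 0.1 (0.0528).

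Towards natural helper cells moved Il18rap (-4.75), Il1r2 (-4.39), Il13 (-3.79), Il1rl1 (-2.33) and Il6 (-2.09), described above. Irf4, a lymphocyte transcription factor, stood in basophils at 16 and 7 FPKM (naive) and 10 and 3 (papain), and in natural helper cells at 5 and 7 (naive) and 65 and 73 (papain). Its change of -4.15 (adjusted p = 0.04) was lost in 7 of the 8 fits without a library. Hhex, a homeobox factor, stood at 64 and 60 in naive and 8 and 19 in papain basophils, and at 2 and 6 and then 12 and 15 in natural helper cells. Its change of -3.88 (adjusted p = 0.018) was lost without either papain natural helper cell library (0.0659 and 0.0647), naive basophil library 2 (0.0638) or naive natural helper cell library 1 (0.0549). Ctsg, a granule protease at 35 and 11 in naive basophils and listed at 0 in the other 6 libraries, had a value of -4.38 (adjusted p = 0.0498) that was lost in all 8 fits without a library. The basophil genes Cyp11a1 (-3.34), Ms4a2 (-3.04) and Fcer1a (-2.96) moved the same way. The value of Ctsg was -7.62 with a pseudocount of 0.1 and -2.34 with 5, whereas that of Fcer1a was -3.02 and -2.75 and that of Ms4a2 -3.25 and -2.42.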

How the results depend on the processing

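None of the 176 named genes called between papain basophils and papain natural helper cells changed sign under the alternatives run. Some named genes that were not called did, among them Ccl5 (-0.19 to 2.22) and Il3ra (-0.24 to 2.51), and counts moved widely. With 1 library left out, the papain count of 2813 ranged from 698 to 3773 (450 to 2098 higher in basophils, 248 to 1675 higher in natural helper cells). The naive count ranged from 1363 to 2701 (625 to 755 and 665 to 2009), and the count of changed differences from 288 to 1691 (172 to 1160 towards basophils, 116 to 531 towards natural helper cells). A fit to the compared libraries alone called 887 genes in papain (454 and 433), 1714 in naive (1029 higher in natural helper cells) and 570 changed differences (389 and 181). Library weights gave 1492 papain calls (978 and 514) and 624 changed differences (432 and 192). Quantile normalization gave 1563 papain calls higher in natural helper cells, 1520 naive calls higher in basophils, and 388 and 517 changed differences. Median-ratio scaling gave 1510 naive calls higher in basophils. With small RNA genes left out, 1559 papain calls were higher in natural helper cells and 390 differences moved towards basophils, and a filter at a mean of 5 FPKM left 411 of these. The causes were not tested. Of 265 named genes, 147 were no longer past the threshold in the fit to the compared libraries alone, of the 176 that had been. Each group has 2 libraries, and rounding to whole FPKM limits the precision of low genes.

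The labels do not say whether same-numbered libraries were paired. Of 21 pairs of groups, 1 had a correlation of the deviations of same-numbered libraries over 0.1 (range -0.15 to 0.12). This shows little shared deviation but cannot show whether the samples were paired. With the replicate number as a block, 2424 genes differed between papain basophils and papain natural helper cells.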
